A study of Homo sapiens with 6 samples.

Results

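The 10 genes described here encode EZH2, the DNA methyltransferases and the histone demethylase LSD1, with some of their paralogs and partners. They were picked as a list of names, with earlier results of these data known, and all 10 were found among the 17177 gene symbols of the expression table: *EZH2*, *EZH1*, *EED*, *SUZ12*, *DNMT1*, *DNMT3A*, *DNMT3B*, *UHRF1*, *KDM1A* (the gene of LSD1) and *RCOR1*. The cells were NCI-H660, an established cell line derived from a neuroendocrine prostate cancer, labelled as wild type and harvested on day 3 after treatment with either PBS or PP (pyrvinium pamoate, an anthelmintic cyanine dye). Each treatment had 3 bulk RNA sequencing libraries, and all 6 came from this 1 cell line. The concentration of PP in these libraries was not given in the sources used here. The study's figure legends call the 3 libraries of a treatment independent samples, whereas its methods state duplicates, and neither they nor the labels say that the libraries came from separate cultures. The p-values below therefore measure the spread between these libraries, which may be technical.

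EZH2 and its paralog EZH1 are the alternative catalytic subunits of Polycomb repressive complex 2 (PRC2), which methylates histone H3 at the lysine known as H3K27 and requires EED and SUZ12 for activity. DNMT1 copies DNA methylation onto newly replicated strands, to which UHRF1 recruits it by recognising hemimethylated CpG sites, whereas DNMT3A and DNMT3B place methyl groups on unmethylated sites. LSD1 removes methyl groups from H3K4, a mark of active promoters and enhancers, and is held on chromatin together with HDAC1 and HDAC2 by the scaffold protein CoREST, the product of *RCOR1*. In neuroendocrine prostate cancer EZH2 is known for high expression, and its gene, like *UHRF1* and *DNMT1*, is a textbook target of the E2F factors that drive the entry into S phase.

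Expression was given as FPKM, a read density scaled to the length of the gene and the depth of the library, so that levels can be compared between genes. Read counts recovered from the FPKM steps summed to between 29064253 and 32481171 per library, and the 10 genes had from 963 counts (*EED*) to 13925 counts (*DNMT1*) in a library, so none of them was near the detection limit. The 10 neuroendocrine markers summed to 857 to 865 FPKM in the PBS libraries and to 474 to 488 FPKM in the PP libraries. The 5 luminal prostate markers in the table summed to at most 1.95 FPKM in any library, with 4 of them below 1 FPKM in every library. The 13 stromal, endothelial and immune markers summed to 10.8 to 11.2 FPKM with PBS and 9.68 to 10.3 FPKM with PP. Of the 3 tested, 1 was higher and 1 lower. In bulk samples, fewer cells of a kind and less RNA per cell cannot be told apart.

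With PP, 4 of the 10 genes fell and none rose. *UHRF1* fell the most, followed by *DNMT3B*, *KDM1A* and *DNMT3A*, while *EZH2*, *EZH1*, *EED*, *SUZ12*, *DNMT1* and *RCOR1* did not pass the test. A gene was called when its Benjamini-Hochberg adjusted p from limma, fitted to log2(FPKM + 1) over the 11726 genes with a mean of at least 1 FPKM, was below 0.05. By this rule 34.4% of all tested genes were lower with PP and 38.1% were higher, so that a fall in 4 of 10 genes was near the share among all genes. At an unadjusted p below 0.05, the same counts of 0 higher and 4 lower were obtained, beside 39.0% and 35.3% of all tested genes. The median log2 fold change of the 10 genes was -0.08, compared with 0.02 over all tested genes. None of the 10 passed the cutoff given in the study's methods (P below 0.001, with the log2 fold change beyond 1 or -1), which 5.18% of the tested genes passed. The PBS and PP libraries did not overlap for 5 of the 10 genes, compared with 75.0% of all tested genes. The fifth was *RCOR1*, whose lowest PBS library and highest PP library were both at 11.4 FPKM. With limma-voom on the recovered counts, 6 of the 10 genes were lower and 0 were higher, as *DNMT1* and *RCOR1* joined the 4, while 36.6% of all tested genes were lower and 36.5% higher by that method. At an unadjusted p below 0.05, voom gave 7 lower and 0 higher, beside 37.5% of all tested genes in either direction.

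**Figure D1:**
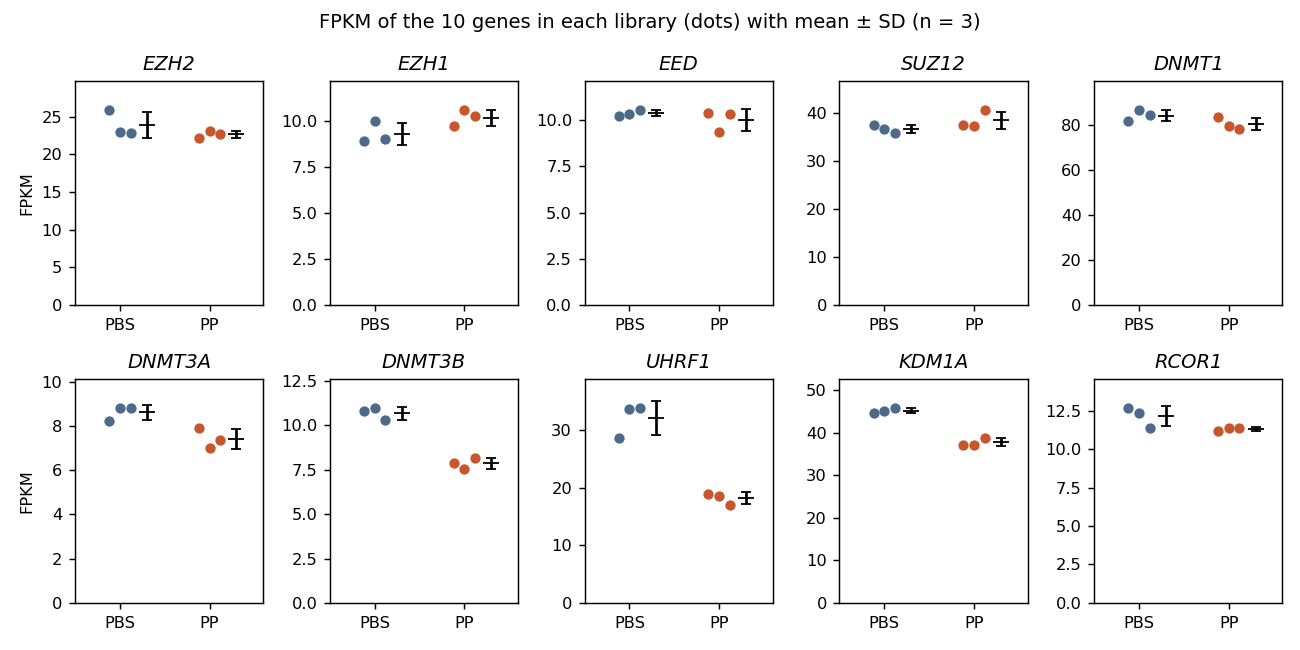
FPKM (vertical axes, starting at 0) of each of the 10 genes in the 3 PBS libraries (blue) and the 3 PP libraries (orange), with the mean and SD beside the dots. *UHRF1*, *DNMT3B*, *KDM1A* and *DNMT3A* had all PP libraries below the PBS libraries, for example 17.0 to 18.9 FPKM against 28.6 to 33.8 FPKM for *UHRF1*.

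Part of the promoter of 5 of these genes is shown. Of these, 4 carry short E2F-type sequences next to the transcription start while differing in how they moved. *DNMT3B* is shown because the window taken for it had fewer CpG sites than those of the other genes. The stretches are 140 bases long, from 120 bases before the RefSeq transcription start to 20 bases after it, and are written 5′ to 3′ on the strand of the gene (GRCh38.p14). Capitals mark the heptamer TTCCCGC, the variant TTCGCGC, the variant TTGCCGC or the variant TTGGCGC on either strand, so that in these stretches GCGGGAA stands for the first and GCGCGAA for the second of them on the opposite strand. No other motif was searched. The stretches are *UHRF1* at chr19:4909381-4909520 (plus strand), *DNMT1* at chr19:10194934-10195073 (minus strand), *EZH2* at chr7:148884272-148884411 (minus strand), *KDM1A* at chr1:23019348-23019487 (plus strand) and *DNMT3B* at chr20:32779732-32779871 (plus strand).
UHRF1: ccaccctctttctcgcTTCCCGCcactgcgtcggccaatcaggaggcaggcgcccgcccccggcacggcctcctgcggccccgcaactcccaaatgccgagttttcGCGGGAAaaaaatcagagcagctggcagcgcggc
DNMT1: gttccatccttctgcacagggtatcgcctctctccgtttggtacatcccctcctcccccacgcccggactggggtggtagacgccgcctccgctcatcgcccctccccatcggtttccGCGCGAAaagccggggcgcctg
EZH2: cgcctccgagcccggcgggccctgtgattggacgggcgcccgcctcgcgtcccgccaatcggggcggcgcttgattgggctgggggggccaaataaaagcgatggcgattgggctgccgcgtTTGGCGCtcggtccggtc
KDM1A: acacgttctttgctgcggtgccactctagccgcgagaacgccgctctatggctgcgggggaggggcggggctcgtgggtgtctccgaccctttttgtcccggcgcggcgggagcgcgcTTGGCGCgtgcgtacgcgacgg
DNMT3B: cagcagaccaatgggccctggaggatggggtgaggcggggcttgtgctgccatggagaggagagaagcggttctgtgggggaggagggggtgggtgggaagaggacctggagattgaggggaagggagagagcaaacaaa

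All 10 genes matched a RefSeq promoter window of 300 bases, 250 before the start and 50 after it. For the 3 genes with more than 1 annotated start, the first listed window was taken. Whether a window lies at the main start of its gene was not examined. The CpG and heptamer counts therefore hold only for the windows taken. At least 1 heptamer was present in 6 of the 10 windows, compared with 13.1% of the windows of 27305 genes. Every heptamer contains a CpG, and 9 of the 10 windows had more CpG sites than the median window. The 27305 genes were neither matched for CpG sites nor limited to expressed genes, so no enrichment can be read from these shares. Counting the first base after the start as 1 and the base before it as -1, the *UHRF1* window held TTCCCGC on its own strand from position -104 and on the opposite strand from position -14. In *DNMT1* the heptamer TTCGCGC lay on the opposite strand from position -2, and in *KDM1A* and *EZH2* the heptamer TTGGCGC lay on the strand of the gene from positions -2 and 3. The remaining matches were TTGCCGC in *EZH1* (opposite strand, position -115) and TTCCCGC in *SUZ12* (position -188). Of the 6 genes with a match, *UHRF1* and *KDM1A* fell with PP and the other 4 did not pass the test, while *DNMT3A* and *DNMT3B* fell without a match in this window. A match is only a description of the letters and says nothing about binding. The *DNMT3B* window had 3 CpG sites, and 25.3% of all windows had as few or fewer. The other 9 windows had 16 to 46 CpG sites, above the median of 14.

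The genes of DNA methylation maintenance were read first. *UHRF1*, the hemimethylated DNA reader, stood at 28.6, 33.6 and 33.8 FPKM in the PBS libraries and at 18.9, 18.6 and 17.0 FPKM in the PP libraries. All PP libraries were below all PBS libraries, and the largest step between libraries of one treatment was from PBS replicate 1 to the other two. The mean was 32.0 ± 2.97 FPKM (SD, n = 3) with PBS and 18.2 ± 1.01 FPKM (SD, n = 3) with PP, a fall of the mean by 43.3%. On the log2(FPKM + 1) scale, the difference of *UHRF1* was -0.78 (SE 0.07, 95% interval -0.93 to -0.63, limma adjusted p = 2.5e-06). This scale understates changes of low values. For example, *TET1* was at -0.64 on it and at -0.90 with limma-voom.

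*DNMT1*, the maintenance methyltransferase that UHRF1 recruits, was the most abundant of the 10 genes. It was at 81.7, 86.5 and 84.3 FPKM with PBS and at 83.3, 79.5 and 78.3 FPKM with PP. PP replicate 1 lay inside the PBS range, so the groups overlapped. The log2 difference of *DNMT1* was -0.07 (SE 0.04, 95% interval -0.15 to 0.02, limma adjusted p = 0.136). On the recovered counts the difference was -0.09 with a limma-voom adjusted p = 0.0181, so the call for *DNMT1* depended on the method.

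Both de novo methyltransferases fell. *DNMT3B* was at 10.8, 10.98 and 10.3 FPKM with PBS and at 7.86, 7.54 and 8.19 FPKM with PP, and the groups were separated by more than the range within either one. Its mean decreased by 26.4%, with a log2 difference of -0.40 (SE 0.05, 95% interval -0.51 to -0.29, limma adjusted p = 4.8e-05). *DNMT3A* was at 8.23, 8.82 and 8.81 FPKM with PBS and at 7.90, 6.99 and 7.38 FPKM with PP. The groups of *DNMT3A* did not overlap, but PBS replicate 1 and PP replicate 1 were close together. Its mean decreased by 13.9%, with a log2 difference of -0.19 (SE 0.06, 95% interval -0.32 to -0.07, limma adjusted p = 0.0107). The ratio of *DNMT3A* to *DNMT3B* FPKM was 0.763, 0.803 and 0.857 in the PBS libraries and 1.01, 0.927 and 0.900 in the PP libraries. The ratio was higher in all 3 PP libraries, by 0.21 when formed from log2(FPKM + 1) values. The two-sided exact permutation p was 0.1, which is the smallest that 3 against 3 libraries can give. It was 0.1 after Benjamini-Hochberg adjustment over the 2 ratios tested.

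Among the partners of the DNA methyltransferases, 4 of 10 tested genes rose, 3 fell and 3 did not pass, with a median log2 fold change of -0.02. *UHRF2*, the paralog of *UHRF1*, rose from 26.7 ± 1.54 to 34.1 ± 1.74 FPKM (SD, n = 3), a log2 difference of 0.34 (limma adjusted p = 0.000181). *USP7*, a deubiquitinase that acts on UHRF1 and DNMT1, rose by 0.38 on the same scale. *PCNA*, the replication clamp that binds DNMT1, went from 308.8 to 262.9 FPKM (log2 difference -0.23), and *LIG1*, the replicative DNA ligase, from 29.3 to 24.1 FPKM (log2 difference -0.27), and both passed the test. *CDCA7L* did not pass, with a log2 difference of 0.05. With voom, 5 rather than 3 of these partners were lower. The symbol of the listed partner *DNMT3L* was absent from the data, so it could not be tested.

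The genes that act against DNA methylation moved in both directions, with 5 of 9 higher, 3 lower and 1 not past the test, and a median log2 fold change of 0.33. *TET1*, which oxidises methylcytosine, fell from 3.65 to 1.99 FPKM (log2 difference -0.64, limma adjusted p = 2.75e-05), whereas its paralog *TET3* rose from 9.63 to 12.4 FPKM (log2 difference 0.33). *TET2* was at 3.76 and 4.07 FPKM and did not pass (limma adjusted p = 0.166). *GADD45A* and *GADD45G*, stress-induced genes linked to demethylation and to cell cycle arrest, rose by 1.44 and 2.06 on the log2 scale, and *GADD45G* reached 312.3 FPKM. The genes of the enzymes that make the ketoglutarate TET enzymes use moved in opposite directions. *IDH2* fell from 94.3 to 61.6 FPKM (log2 difference -0.61), and *IDH1*, named here after its values had been seen, rose from 33.8 to 92.1 FPKM (log2 difference 1.42, limma adjusted p = 7.64e-10). Of the 8 genes listed as readers of methylated CpG or their relatives, 5 rose, 1 fell and 2 did not pass, with a median of 0.25. *ZBTB38* rose by 0.83 on the log2 scale, *MBD1* by 0.29 and *MBD2* by 0.28. The 1 that fell was *MBD3*, listed as a relative and a subunit of the NuRD complex. It went from 38.7 to 26.3 FPKM (log2 difference -0.54).

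*KDM1A* was at 44.6, 45.2 and 45.8 FPKM in the PBS libraries and at 37.2, 37.2 and 38.8 FPKM in the PP libraries. The libraries of each treatment lay close together, and the lowest PBS library was well above the highest PP library. The mean decreased by 16.5%, from 45.2 ± 0.612 to 37.7 ± 0.934 FPKM (SD, n = 3), with a log2 difference of -0.25 (SE 0.04, 95% interval -0.33 to -0.17, limma adjusted p = 0.000102). *RCOR1*, the CoREST scaffold, was at 12.7, 12.4 and 11.4 FPKM with PBS and at 11.2, 11.3 and 11.4 FPKM with PP. PBS replicate 3 was level with the PP libraries and the other two PBS libraries were above them. The log2 difference of *RCOR1* was -0.09 (SE 0.05, 95% interval -0.21 to 0.02, limma adjusted p = 0.110), but without PBS replicate 3 it was -0.14 (limma adjusted p = 0.0411), and on the recovered counts it was -0.12 (limma-voom adjusted p = 0.0384).

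The other parts of the LSD1-CoREST complex moved in both directions, with 3 of 13 genes higher, 6 lower and 4 not past the test, and a median log2 fold change of 0.02. *GSE1*, a scaffold of LSD1 complexes, fell from 30.9 ± 0.387 to 16.0 ± 0.337 FPKM (SD, n = 3), a log2 difference of -0.91 (limma adjusted p = 1.5e-08). *HDAC1*, the deacetylase that works alongside LSD1, fell from 83.4 ± 2.42 to 57.2 ± 4.41 FPKM (log2 difference -0.54, limma adjusted p = 6.28e-06), while *HDAC2* was at 38.7 and 40.0 FPKM and did not pass (limma adjusted p = 0.237). The corepressor gene *CTBP1* fell by 0.26 on the log2 scale. In the other direction, *RCOR3*, a CoREST paralog, rose from 12.5 ± 0.161 to 18.8 ± 1.36 FPKM (log2 difference 0.55, limma adjusted p = 7.03e-06), and the zinc finger gene *ZMYM2* rose by 0.63 and the second LSD family demethylase *KDM1B* by 0.29. *RCOR2* was at 3.63 and 3.71 FPKM and did not pass.

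Of the 8 tested genes for repressors that recruit LSD1, 4 rose, 2 fell and 2 did not pass, with a median of 0.05. *REST*, the repressor of neuronal genes, was at 5.03, 4.95 and 4.98 FPKM with PBS and at 8.73, 8.08 and 8.55 FPKM with PP, so that the groups were far apart relative to their spread. Its log2 difference was 0.66 (limma adjusted p = 1.23e-06). *INSM1*, a neuroendocrine zinc finger factor that binds LSD1, rose from 16.5 to 19.3 FPKM (log2 difference 0.21, limma adjusted p = 0.00679), *RREB1* rose by 0.53 on the log2 scale, and the epithelial factor *OVOL2* fell from 21.0 to 13.2 FPKM (log2 difference -0.64). Of the 10 genes of the H3K4 methyltransferases and their shared core, 4 rose, 2 fell and 4 did not pass (median 0.10). *KMT2A* rose by 0.48 and the core subunit *WDR5* by 0.14 on the log2 scale, *SETD1B* fell by 0.27, and *KMT2B* was at 0.09 and did not pass.

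Among the 4 PRC2 genes, none passed the test. *EZH2* was at 25.8, 23.0 and 22.8 FPKM with PBS and at 22.1, 23.0 and 22.7 FPKM with PP. PBS replicate 1 stood above the other 5 libraries, which lay between 22.1 and 23.0 FPKM. The log2 difference of *EZH2* was -0.07 (SE 0.05, 95% interval -0.19 to 0.04, limma adjusted p = 0.225), and without PBS replicate 1 it was -0.02. On the recovered counts it was -0.10, just short of the threshold (limma-voom adjusted p = 0.0566). The alternative catalytic subunit *EZH1* was at 8.91, 10.01 and 9.06 FPKM with PBS and at 9.72, 10.6 and 10.3 FPKM with PP. The PP libraries of *EZH1* tended higher, but PBS replicate 2 lay among them. Its log2 difference was 0.12 (SE 0.06, 95% interval -0.01 to 0.24, limma adjusted p = 0.0865), and it passed without PBS replicate 2, at 0.16 (limma adjusted p = 0.0308).

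The ratio of *EZH2* to *EZH1* FPKM was 2.90, 2.30 and 2.52 in the PBS libraries and 2.28, 2.17 and 2.21 in the PP libraries. PBS replicate 2 and PP replicate 1 were nearly level, although the groups did not overlap. Formed from log2(FPKM + 1) values, the log2 ratio was lower with PP by a difference of -0.19. The two-sided exact permutation p was 0.1, the smallest this design allows (0.1 after Benjamini-Hochberg adjustment). Without PBS replicate 1 the difference was -0.11. The structural subunits overlapped between treatments as well. *SUZ12* ranged from 35.7 to 37.4 FPKM with PBS and from 37.3 to 40.5 FPKM with PP (log2 difference 0.07, 95% interval -0.03 to 0.16, limma adjusted p = 0.173). *EED* ranged from 10.2 to 10.5 FPKM with PBS and from 9.34 to 10.4 FPKM with PP (log2 difference -0.04, 95% interval -0.16 to 0.07, limma adjusted p = 0.465). Taking the 6 genes that did not pass, including *DNMT1* and *RCOR1*, the 95% intervals reached no lower than -0.21 and no higher than 0.24 on the log2 scale. A missed threshold does not show that these genes were unaffected. *EZH2* and *SUZ12* have pseudogene copies (*EZH2P1* and *SUZ12P1*), and how reads shared with them were assigned is not given in the sources used here.

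The remaining PRC2 subunits did move, in both directions, with 3 of 9 tested genes higher, 4 lower and 2 not past (median log2 fold change 0.03). The histone-binding subunits *RBBP4* and *RBBP7*, which also serve other complexes such as NuRD, fell from 97.3 to 81.2 FPKM (log2 difference -0.26, limma adjusted p = 9.43e-05) and from 123.7 to 98.1 FPKM (log2 difference -0.33, limma adjusted p = 4.74e-06). *JARID2* and *AEBP2* mark one form of PRC2. *JARID2* fell from 3.90 to 2.88 FPKM (log2 difference -0.33) and *AEBP2* rose from 3.72 to 6.17 FPKM (log2 difference 0.61). *PHF1*, a subunit of the other form, rose from 33.8 to 49.5 FPKM (log2 difference 0.54). *RBBP4* has pseudogene copies too, and its level carries the same doubt.

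Both genes of the H3K27 demethylases rose. *KDM6B* was at 9.39, 8.76 and 9.05 FPKM with PBS and at 14.3, 14.5 and 15.4 FPKM with PP, without overlap, and its log2 difference was 0.64 (limma adjusted p = 1.06e-06). *KDM6A* rose from 9.97 to 13.4 FPKM (log2 difference 0.39, limma adjusted p = 1.73e-05). Of the 19 subunits of PRC1, a complex of which only some forms read the mark of PRC2, 10 rose, 5 fell and 4 did not pass, with a median of 0.21. *RING1*, one of its E3 ligases, rose by 0.32 on the log2 scale, *PCGF3* fell from 13.7 to 7.04 FPKM (log2 difference -0.87), and *PHC2* was at 0.08 and did not pass.

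**Figure D2:**
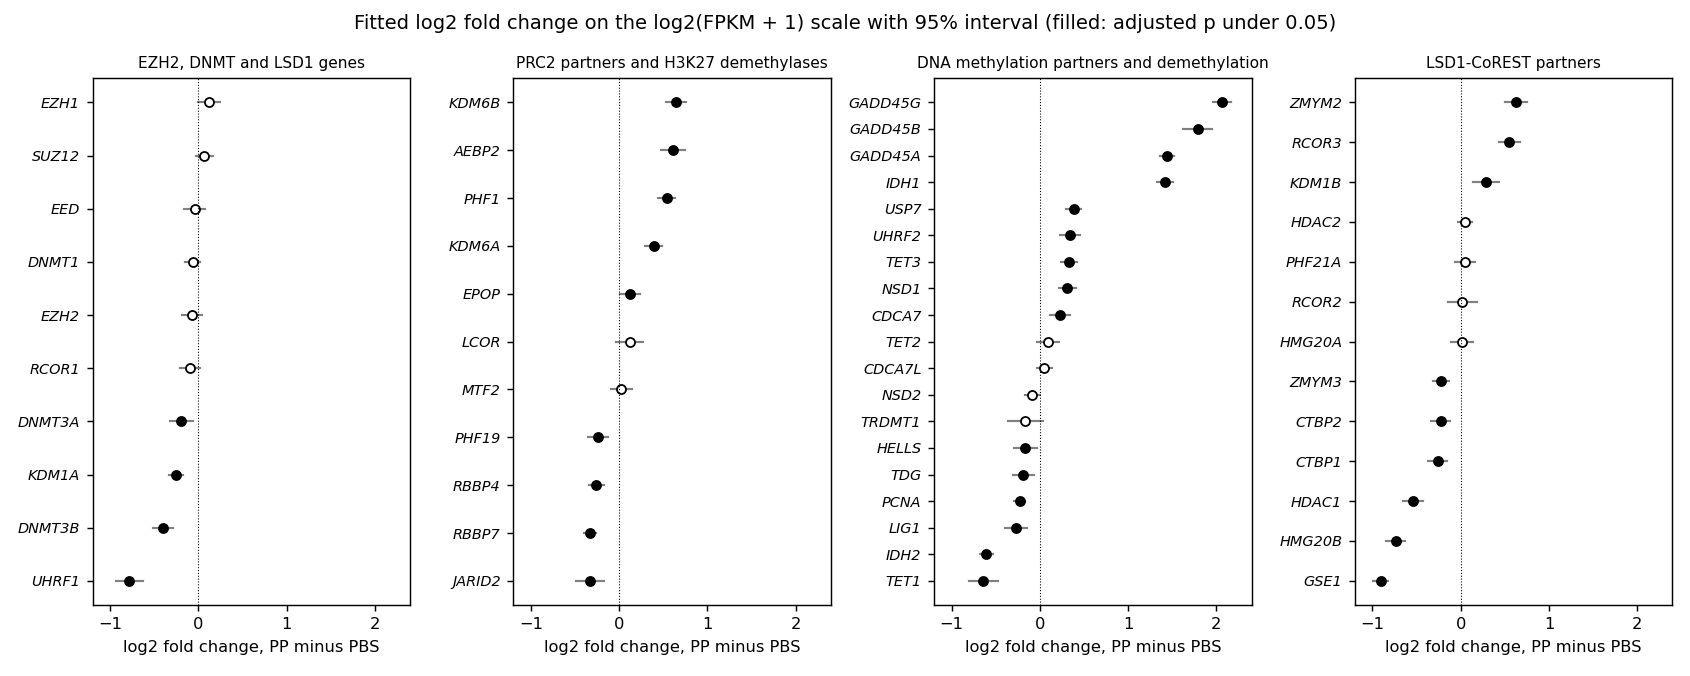
Fitted log2 fold change (horizontal axes, PP minus PBS, from log2(FPKM + 1) values) with its 95% interval for the 10 genes and the tested genes of 5 related lists, with filled symbols for a limma adjusted p below 0.05. *UHRF1* lay at -0.78 and *EZH1* at 0.12, the lowest and the highest of the 10.

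The mean levels with PBS spanned from 84.2 FPKM for *DNMT1* to 8.62 FPKM for *DNMT3A*. In the PBS libraries the order from high to low was *DNMT1*, *KDM1A*, *SUZ12*, *UHRF1*, *EZH2*, *RCOR1*, *DNMT3B*, *EED*, *EZH1* and *DNMT3A*, and of these neighbours only the ranges of *DNMT3B* and *EED* overlapped. In the PP libraries the order was *DNMT1*, *SUZ12*, *KDM1A*, *EZH2*, *UHRF1*, *RCOR1*, *EZH1*, *EED*, *DNMT3B* and *DNMT3A*, with overlapping ranges for *SUZ12* and *KDM1A*, for *EZH1* and *EED*, and for *DNMT3B* and *DNMT3A*. *UHRF1* thus stood above *EZH2* in every PBS library and below it in every PP library.

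Further pairs of paralogs were set side by side after their values had been seen, and their ratios are given without a test. The ratio of *UHRF1* to *UHRF2* FPKM was 1.12, 1.29 and 1.19 with PBS and 0.525, 0.558 and 0.518 with PP, so that the order of these paralogs was opposite in the treatments. *KDM1A* to *KDM1B* was 5.60, 6.39 and 5.33 with PBS and 3.68, 3.96 and 3.89 with PP. *RCOR1* to *RCOR3* was 1.01, 1.002 and 0.903 with PBS and 0.643, 0.592 and 0.570 with PP. In each of these pairs the gene among the 10 made up a smaller share of the pair in every PP library. Formed from log2(FPKM + 1) values, the log2 ratio of *TET1* to *TET3* differed by -0.97 between PP and PBS. That of *HDAC1* to *HDAC2* differed by -0.59. The added 1 weighs on low values such as those of *TET1*. The ratio of *TET1* to *TET3* in plain FPKM was 0.375, 0.371 and 0.391 with PBS. With PP it was 0.156, 0.141 and 0.187.

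**Figure D3:**
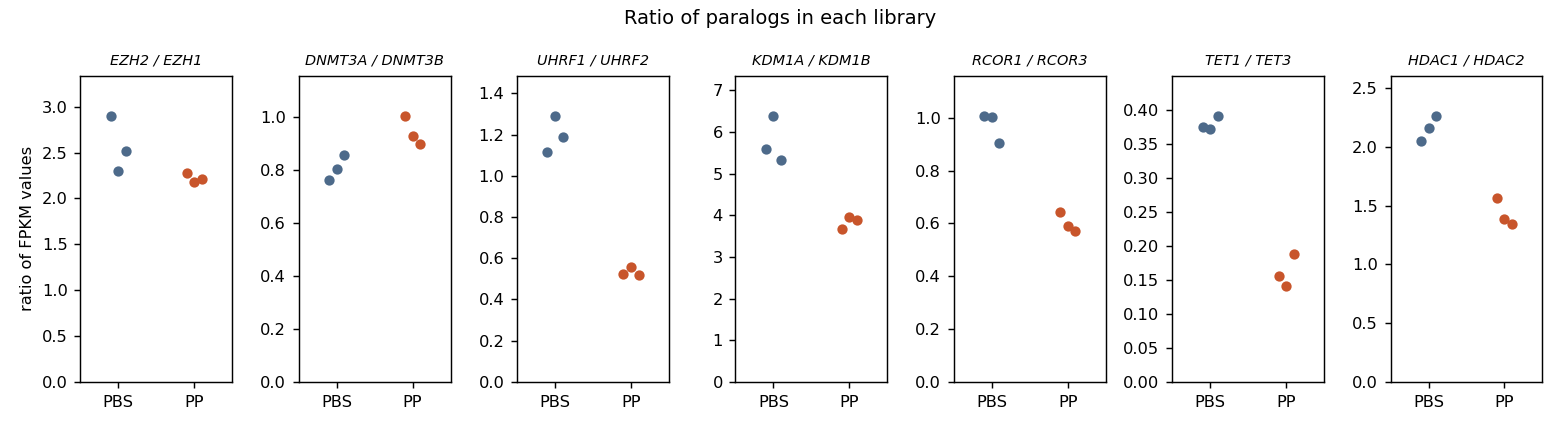
Ratio of the FPKM values of 7 pairs of paralogs (vertical axes, starting at 0) in each of the 3 PBS libraries (blue) and the 3 PP libraries (orange). The ratio of *UHRF1* to *UHRF2* was 1.12 to 1.29 with PBS and 0.518 to 0.558 with PP, whereas *EZH2* to *EZH1* shifted from 2.30 to 2.90 with PBS to 2.17 to 2.28 with PP.

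Because *UHRF1*, *DNMT1* and *EZH2* are transcribed with the cell cycle, their values are given beside 28 E2F and S-phase genes. Of these, 15 fell, 5 rose and 8 did not pass, with a median log2 fold change of -0.17. Their summed level was 1755 to 1767 FPKM in the PBS libraries and 1541 to 1565 FPKM in the PP libraries. *MKI67*, a marker of cycling cells, fell from 44.6 ± 0.862 to 28.9 ± 0.565 FPKM (SD, n = 3; log2 difference -0.61, limma adjusted p = 1.88e-07), *TOP2A* fell by 0.51 on the log2 scale, and the cyclin gene *CCNE1* fell from 10.8 to 4.22 FPKM (log2 difference -1.17). Other genes of the list did otherwise. *E2F1* was at 69.5 and 68.6 FPKM (limma adjusted p = 0.681), *MCM7* had a log2 difference of -0.02 and did not pass, *MCM4* fell by 0.13, and the origin licensing gene *CDC6* rose by 0.75. The part of the S-phase genes in the fall of *UHRF1* was not tested.

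The supply of the methyl donor was read from the methionine and S-adenosylmethionine cycle, in which 4 of 9 tested genes rose, 4 fell and 1 did not pass (median 0.21). *MAT2A*, which makes S-adenosylmethionine, fell from 181.2 to 149.1 FPKM (log2 difference -0.28, limma adjusted p = 1.57e-05). *AHCY*, which clears the product that inhibits methyltransferases, fell from 50.3 to 33.1 FPKM (log2 difference -0.59, limma adjusted p = 7.16e-07), and *AMD1* fell by 0.31 on the log2 scale. The AHCY-like gene *AHCYL1* rose by 0.39.

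Genes known from other systems to be repressed through EZH2 or silenced by DNA methylation were read as well. Of 9 tested genes known to be repressed through EZH2, 6 fell, 1 rose and 2 did not pass, with a median log2 fold change of -0.27. By the same test, 34.4% of all tested genes were lower with PP. Some of the 9 were well expressed before PP, with PBS means of 41.7 FPKM for *CDKN2A* and 39.8 FPKM for *CDH1*. Others were low, with PBS means of 1.32 FPKM for *KLF2* and 1.46 FPKM for *RARB*. Whether EZH2 repressed any of them in these cells was not tested. *TIMP2*, a metalloproteinase inhibitor, was at 10.5, 10.8 and 11.7 FPKM with PBS and at 2.87, 3.12 and 3.07 FPKM with PP, and its log2 difference was -1.58 (limma adjusted p = 5.38e-09). *CDH1*, the gene of E-cadherin, fell by 0.37 on the log2 scale, *RUNX3* by 0.27 and *CDKN2A* by 0.10, while *RARB* rose from 1.46 to 1.99 FPKM (log2 difference 0.28). Of the 12 genes known to be silenced by DNA methylation in cancer, 10 were in the table and only 2 reached a mean of 1 FPKM. *RASSF1* rose from 19.6 to 43.2 FPKM (log2 difference 1.10, limma adjusted p = 9.04e-09). With 1514 to 1693 counts in the PBS libraries, it was not silent before PP. One value per gene cannot separate transcripts from different starts, and DNA methylation was not measured here. *GSTP1* was at 1.96, 2.21 and 2.25 FPKM with PBS and at 0.0879, 1.61 and 0 FPKM with PP, which was 0 to 52 counts, and its fall (log2 difference -1.15, limma adjusted p = 0.00468) rested on PP libraries that differed widely among themselves.

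Of the 9 tested neuroendocrine markers, 5 fell, 2 rose and 2 did not pass, with a median of -0.15. *ENO2*, a neuronal enolase, fell by 0.15 on the log2 scale, *SCG2* rose from 8.20 to 13.5 FPKM (log2 difference 0.66), and *SCG3* was at 0.09 and did not pass. The part of these marker changes in the fall of *UHRF1*, *DNMT3B*, *KDM1A* and *DNMT3A* was not tested.

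The genes whose levels ran most like those of the 3 central enzymes over the 6 libraries are given as a description, since the libraries share only 2 treatments. For *EZH2* these were *ARMH3* (Pearson r = 0.986), *TMEM45A* (r = 0.970) and *SSH2* (r = 0.962), and 9 genes in all had an r above 0.95. For *DNMT1* they were *TELO2* (r = 0.994), *WNT9A* (r = 0.992) and *PTGES2* (r = 0.988), with 49 genes above 0.95. For *KDM1A* they were *LRRC10B*, *USP28* and *GNAL* (r from 0.998 to 0.999) and 1940 genes were above 0.95.

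The 4 calls among the 10 genes held under all 14 alternative settings. *UHRF1* ranged from -0.86 to -0.74 on the log2 scale, *DNMT3B* from -0.46 to -0.37, *KDM1A* from -0.28 to -0.24 and *DNMT3A* from -0.24 to -0.16, with an adjusted p of at most 0.0465 for *DNMT3A* in limma or limma-voom. *EZH2* ranged from -0.10 to -0.02 and passed under none of them, nor did *EED* or *SUZ12*.

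**Figure D4:**
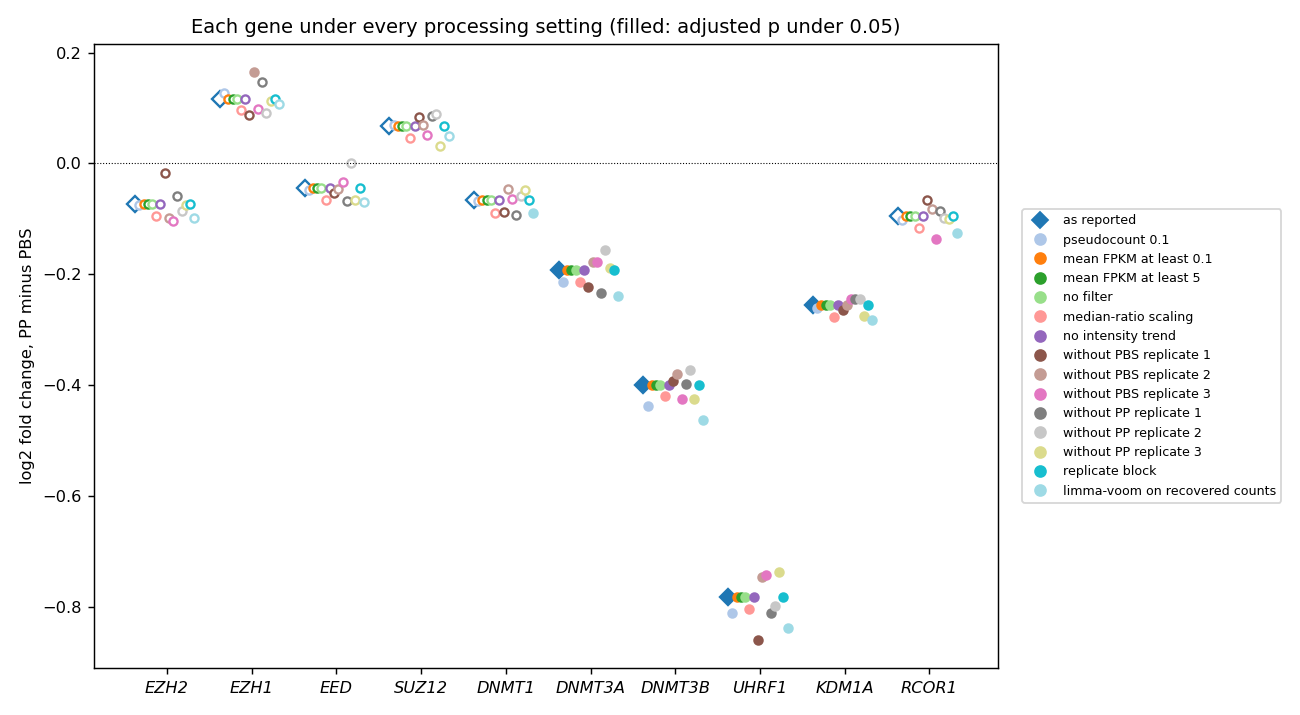
Fitted log2 fold change (vertical axis, PP minus PBS) of each of the 10 genes as reported (diamonds) and under 14 alternative settings (circles), with filled symbols for an adjusted p below 0.05. *UHRF1*, *DNMT3B*, *KDM1A* and *DNMT3A* were filled throughout, and *EZH2*, *EED* and *SUZ12* were open throughout.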

How the data were processed

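Bulk RNA of NCI-H660 cells was sequenced in 3 PBS and 3 PP libraries. The deposited table holds FPKM values per gene symbol, made by the authors, with no coordinates. The labels name fastp, HISAT2, HTSeq, GRCh38 and stranded libraries, whereas the methods name Bowtie, RSEM, Cufflinks and hg19 and share only HTSeq with them, so the steps behind the FPKM values could not be settled. The methods state duplicates and the labels give 3 libraries per treatment.

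Because 1 read is worth a fixed FPKM step per gene and library, counts were recovered for all 17177 rows (tolerance 0.01 count), giving 29064253 to 32481171 per library, which is too low where all counts of a gene share a divisor. The tests used limma 3.58.1 in R 4.3.3 on log2(FPKM + 1), with an intensity trend, genes at a mean of at least 1 FPKM and Benjamini-Hochberg adjustment. Ratios within libraries were compared by two-sided exact permutation tests. The scripts were tested on simulated data. The alternatives were a pseudocount of 0.1, minimum means of 0.1, 5 or none, median-ratio scaling, no trend, each library left out, a replicate block, and limma-voom on the recovered counts with TMM factors computed by a script of the same formula. Replicates of a treatment differed by more than sampling noise (chi-square per degree of freedom 3.37 to 7.07), and treatments by more (149 to 170).

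The 10 genes and the lists were chosen with earlier results of these data known. From each list, the genes named were the most abundant, the furthest moved in each direction among those called, or standing paralogs and partners, by a written rule, and some of these are not reported here. The 5 further paralog ratios were chosen after their values had been seen.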

Additional observations from a re-analysis of the deposited data

How the results depend on the processing

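Under the 14 alternatives, 4 of the 10 genes were lower, except for 5 without PBS replicate 3 (*RCOR1* added) and 6 with voom (*DNMT1* and *RCOR1* added). The number higher ranged from 0 to 1 when 1 library was left out, the 1 being *EZH1* without PBS replicate 2. The log2 difference of the ratio of *EZH2* to *EZH1* ranged from -0.26 to -0.11 with 1 library left out, and that of *DNMT3A* to *DNMT3B* from 0.17 to 0.25. Over all tested genes, 3529 to 4736 were higher and 3031 to 4458 lower. Of 1014 recomputed values of 73 named genes, 996 kept direction and side of the threshold, 6 lost the threshold, 6 gained it and 6 turned direction, none of these called. Besides *EZH1*, *RCOR1* and *DNMT1*, *SCG3* gained the threshold without PP replicate 1 (0.14, limma adjusted p = 0.0157) and *KMT2B* without PP replicate 3 (0.11, limma adjusted p = 0.0480). With 1 library left out, *EED* ranged from -0.068 to 0.0014, *E2F1* from -0.052 to 0.0055, *MCM7* from -0.041 to 0.011 and *RCOR2* from -0.042 to 0.095. With voom *RCOR2* was at -0.0042. The falls of *ENO2* and *CDKN2A* lost the threshold in 6 settings in all (*ENO2* without a filter or without PBS replicate 2, PBS replicate 3 or PP replicate 3; *CDKN2A* without PBS replicate 2 or with the block). The causes were not tested.

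The replicate numbers did not pair the libraries, as the deviations of same-numbered libraries correlated at -0.21, -0.01 and -0.13. With the replicate block, 0 of the 10 genes were higher and 4 lower, and 4260 of all tested genes were higher and 3878 lower.

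With 3 libraries per treatment, the exact tests of the ratios could not reach a p below 0.1, and *EED*, the least counted of the 10 genes, had 963 counts in its lowest library.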
